A study of Mus musculus with 12 samples.

Results

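The Myc and Mxd network is a set of transcription factors that meet on one partner, Max. Myc proteins pair with Max and activate genes of growth and division, while the Mxd proteins, Mxi1, Mnt and Mga pair with the same Max and repress, so that the balance of the members decides what is bound at their shared DNA sequence, the E-box. In the cerebellum Mycn is the Myc protein best known for driving the division of granule neuron precursors, downstream of Sonic hedgehog from Purkinje cells. The 10 genes described here were listed by name: Mycn, Myc, Mycl, Max, Mxd1, Mxd3, Mxd4, Mxi1, Mnt and Mga. No threshold on their values was used, but the list was chosen with earlier results of these data known. All 10 were found among the 53379 gene rows of the count tables by their Ensembl identifiers, and all 10 were among the 13442 genes that passed the filter on low counts.

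The RNA came from the external granule layer, the sheet that holds the dividing granule neuron precursors. It was cut by laser out of central lobules of the cerebellum from C57BL/6 mice aged 6 days (P6). The knockout mice were conditional knockouts for SnoN (gene Skil), a regulator of TGF-beta signalling and transcription, and the wild-type mice were littermate controls; the sources used here do not name the recombinase driver or tie each library to its own animal, and a p-value here therefore reflects spread among libraries, which may be partly technical. There were 6 knockout libraries (KO2, KO3, KO4, KO5, KO6 and KO8) and 6 wild-type libraries (WT1, WT2, WT3, WT5, WT6 and WT7). KO4 and WT2 are marked by the submitters as outliers of a robust principal component analysis and were set apart, which left 5 against 5 libraries; their values for each member are given beside its result.

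Gene counts summed to between 7520076 and 15083086 per library, and the lowest count of any network gene in any library was 52 reads. Skil averaged 30.7 ± 6.38 CPM in knockout and 49.9 ± 7.98 CPM in wild type (reads relative to library size, scaled with TMM factors; SD, n = 5 each, here and throughout), and every knockout value lay below every wild-type value (log2 fold change -0.70, adjusted p = 0.124 by edgeR); KO4 had 14.0 CPM and WT2 76.5 CPM. KO2, which one label calls wild type and its title calls knockout, had 36.1 CPM of Skil and was kept as knockout. The summed markers of granule precursors ranged from 2674 to 3257 CPM in knockout and from 2542 to 2756 CPM in wild type, with 1 of 10 markers, Rgs16, averaging under 1 CPM. The 10 markers of differentiating granule neurons summed to more, 3973 to 7233 CPM in knockout and 3643 to 5808 CPM in wild type, with Gabra6 under 1 CPM. Of the 9 tested, 3 were higher and 4 lower in knockout at an unadjusted p under 0.05 by edgeR (77.8% beside 21.8% of all genes tested). Markers of other cells were also present: the 8 Purkinje markers summed to 304 to 554 CPM in knockout and 248 to 351 CPM in wild type, with Ppp1r17 and Skor2 under 1 CPM. The 12 Bergmann glia and astrocyte markers summed to 1139 to 1560 CPM in knockout and 879 to 1308 CPM in wild type. Libraries also differed in how counts depended on base composition. Per 10 percentage points of transcript GC content, log2 CPM changed relative to the mean library by -0.20 to 0.17 in knockout (median -0.17) and by 0.036 to 0.25 in wild type (median 0.13), with 0.17 in KO4 and -0.43 in WT2. For this reason each member's fold change is also given with the GC trend of each library removed.

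Within the layer the network was dominated by Mycn, Mxd3 and Mycl. Per kilobase of annotated exon and over the 10 libraries, Mycn averaged 90.9 ± 13.7 CPM per kb, above 95.4% of the genes tested. Mxd3, the Mxd protein that in mouse granule precursors accompanies division and not differentiation, averaged 55.7 ± 7.73 CPM per kb. Mycl, the least studied Myc paralogue, averaged 46.3 ± 5.93 CPM per kb. Max, the common partner, followed at 15.9 ± 2.09 CPM per kb, so that these 3 partners each stood above it. The transcript of Myc itself was scarce, at 4.04 ± 0.689 CPM per kb, close to the median of 4.67 CPM per kb over all genes with a length.

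The repressors other than Mxd3 were low to moderate. Mxi1 averaged 9.93 ± 0.966 CPM per kb and Mxd4 8.68 ± 1.12 CPM per kb; both are Mxd proteins usually associated with cells leaving the cycle. Mga, the very large member that also carries a T-box domain and sits in a Polycomb complex, averaged 4.41 ± 0.609 CPM per kb, Mnt, a broadly expressed Max partner, 3.17 ± 0.704 CPM per kb, and Mxd1 1.31 ± 0.212 CPM per kb. In this order 4 neighbouring pairs had overlapping ranges over the 10 libraries. Mxd3 was above Mycl in 10 of 10 libraries although their ranges overlapped, Mxi1 was above Mxd4 in 8 of 10, and Mga was above Myc, and Myc above Mnt, in 7 of 10. The lengths count every annotated exon of a gene, so a gene with annotated exons that this tissue does not use would be placed too low.

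Between knockout and wild type, 0 of the 10 network genes reached a Benjamini-Hochberg adjusted p under 0.05 (edgeR, quasi-likelihood test fitted on all genes), where 0.0223% of all genes tested did, 0.0149% as higher and 0.00744% as lower. The 2 members with the smallest p were a pair of Myc paralogues with opposite signs: Mycn had a higher mean in knockout by 27.3%, and Mycl a lower mean by 18.7%. At an unadjusted p under 0.05 these 2 of 10 members stood out, 1 higher and 1 lower, a share of 20% beside 21.8% of all genes tested (11.8% higher and 9.97% lower), close to that background. The median log2 fold change of the 10 members was -0.07, beside 0.0013 over all genes, and turned to 0.0080 with the GC trend removed.

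**Figure D1:**
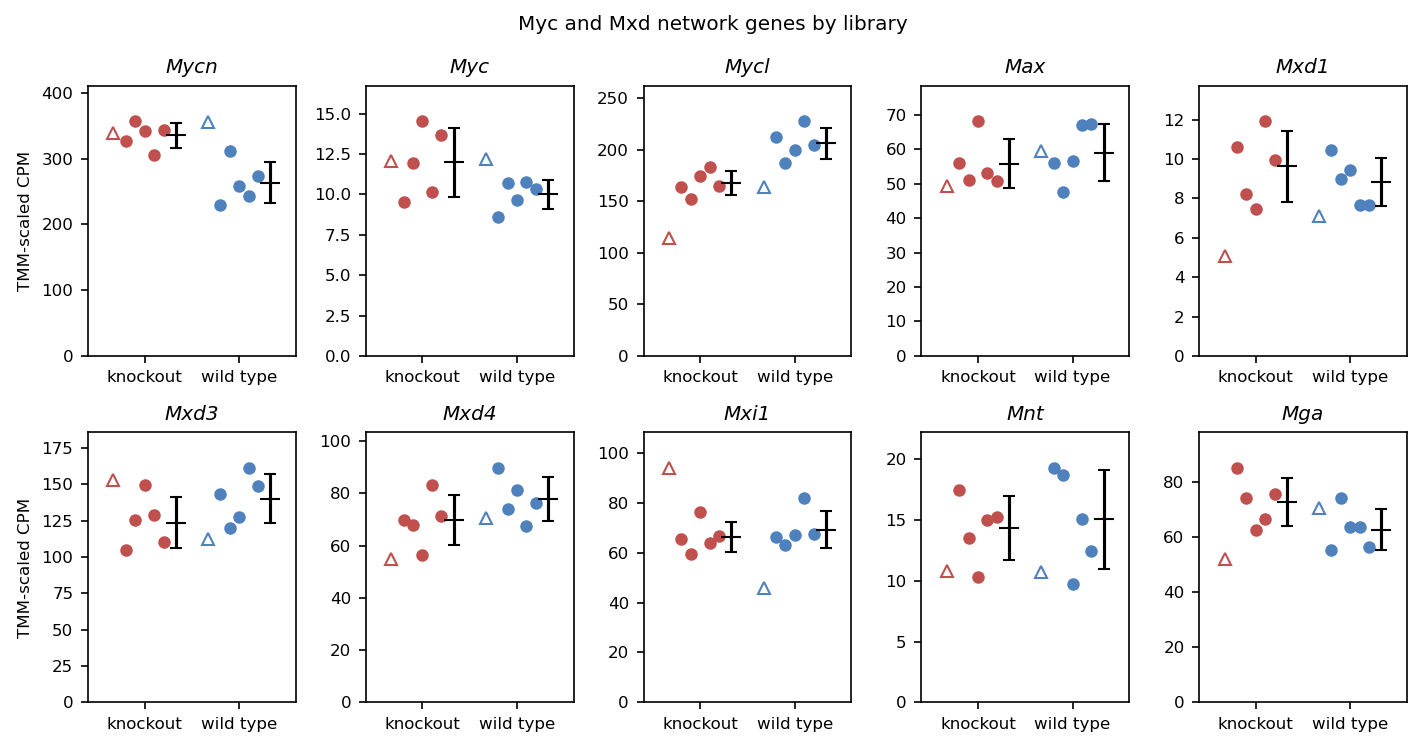
TMM-scaled CPM of each network gene in each library, knockout on the left (red) and wild type on the right (blue); filled points are the 5 libraries compared, black bars their mean and SD, and open triangles the marked libraries KO4 and WT2. The 5 knockout values of Mycl, 152 to 183 CPM, all lie below the 5 wild-type values, 187 to 228 CPM, and the groups of the other 9 genes overlap.

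Mycn (ENSMUSG00000037169.15, chromosome 12, 12936093 to 12941914 in GRCm38, minus strand) encodes the Myc paralogue of neural precursors. KO2 had 327 CPM, KO3 357, KO5 342, KO6 306 and KO8 344, against 229.7 CPM for WT1, 311 for WT3, 258 for WT5, 244 for WT6 and 274 for WT7. All knockout values but KO6 lay above the highest wild-type value, that of WT3, and the groups overlapped only through that pair of libraries. The log2 fold change was 0.35 (SE 0.10, edgeR unadjusted p = 0.00258, adjusted p = 0.131), and a two-sided exact permutation test on log2 of CPM plus 1 gave p = 0.0159, where 0.00794 is the smallest these group sizes allow. The marked libraries had nearly equal values in the opposite order, 339 CPM in KO4 and 355 CPM in WT2, and with them included the log2 fold change was 0.27 (adjusted p = 0.999). With the GC trend removed the log2 fold change was 0.50 (SE 0.10, unadjusted p = 1.2e-04, adjusted p = 0.103). The summed Purkinje markers had a median of 377 CPM in knockout and 283 CPM in wild type, and the glial markers 1411 CPM in knockout and 1202 CPM in wild type. Taken singly, the 6 Purkinje markers tested all had positive log2 fold changes. Of the 12 glial markers 7 were positive and 5 negative, with a median of 0.019. The summed markers of differentiating granule neurons had a median of 5720 CPM in knockout and 5055 CPM in wild type. Of the 9 tested, 3 had positive and 6 negative log2 fold changes. The part of these markers in the result was not tested. In bulk tissue such as this, more cells that express a gene and more RNA per cell cannot be told apart.

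Mycl (ENSMUSG00000028654.13, chromosome 4, 122995652 to 123002485 in GRCm38, plus strand) had the lower mean in knockout. KO2 had 164 CPM, KO3 152, KO5 175, KO6 183 and KO8 165, against 212 CPM for WT1, 187 for WT3, 200.3 for WT5, 228 for WT6 and 204 for WT7. No knockout value reached the lowest wild-type value; Mycl was the 1 member of 10 whose groups did not overlap, beside 2.35% of all genes tested (1.04% in the higher and 1.31% in the lower direction). The log2 fold change was -0.30 (SE 0.09, edgeR unadjusted p = 0.00506, adjusted p = 0.132; two-sided exact permutation p = 0.00794). Of the marked libraries, KO4 had 114 CPM and WT2 164 CPM, the same order as the groups, although WT2 lay inside the knockout range. With all 12 libraries the log2 fold change was -0.33 (adjusted p = 0.999), and with the GC trend removed it was -0.13 (SE 0.08, unadjusted p = 0.115, adjusted p = 0.429), more than 1.5 times smaller in size. In GC-corrected values the groups nearly met, at 161 to 182.9 CPM in knockout and 183.2 to 202 CPM in wild type. No share over all genes is given for GC-corrected values, so this separation stands without a background.

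The call of both paralogues differed between tools and with 1 library. DESeq2 gave an adjusted p of 0.0317 for Mycn and 0.0403 for Mycl, where 4.71% of the 9973 genes with an adjusted p passed. Without KO5, edgeR gave 0.0141 for Mycn and 0.0179 for Mycl, in a fit in which 22.9% of all genes passed. In the other 21 alternative fits neither passed, and the sign of both was kept in all 23. The GC trend of KO5 was like that of the marked KO4. Per 10 percentage points of GC content it was 0.17 in each, against 0.0020 in KO6, -0.19 in KO2, -0.20 in KO3 and -0.17 in KO8. Whether this bears on the calls was not tested.

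The promoters of Mycn and Mycl are shown because these paralogues had opposite signs, and to set their sequence beside the E-box that the network itself binds. Each line gives the 250 bases before the annotated start, 5′ to 3′ on the gene's strand, from RefSeq (GRCm38.p6):
Mycn promoter, chr12:12941837-12942086, minus strand: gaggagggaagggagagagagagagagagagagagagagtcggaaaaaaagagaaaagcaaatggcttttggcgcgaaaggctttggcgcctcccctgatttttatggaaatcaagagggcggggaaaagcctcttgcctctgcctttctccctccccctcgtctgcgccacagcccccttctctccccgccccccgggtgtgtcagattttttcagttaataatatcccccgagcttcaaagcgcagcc
Mycl promoter, chr4:122995681-122995930, plus strand: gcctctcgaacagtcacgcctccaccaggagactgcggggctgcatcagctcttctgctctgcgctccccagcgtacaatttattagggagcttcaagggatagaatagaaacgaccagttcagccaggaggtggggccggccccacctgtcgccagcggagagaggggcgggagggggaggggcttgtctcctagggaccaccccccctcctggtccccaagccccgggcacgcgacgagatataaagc
Neither window holds the E-box CACGTG, the SMAD palindrome GTCTAGAC or the Gli motif GACCACCCA, searched on both strands. Over all 32851 promoter windows of the same length, 6.02% held CACGTG, 0.167% GTCTAGAC and 0.225% GACCACCCA. The Mycl window was the richer in G and C, at 63.6% against 54.8% for Mycn. The RefSeq starts differ from the ends of the gene spans given above. The Mycl window lies inside its span, which begins at 122995652, and the Mycn window overlaps its span, which ends at 12941914. Windows were matched for 9 of the 10 members, all but Myc.

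Because Mycn and Mycl are counted in the same library, their ratio does not depend on scaling between libraries, and their transcripts have nearly equal GC content, 54.8% for Mycn and 55.8% for Mycl. KO2 had 1.99 Mycn reads per Mycl read, KO3 2.35, KO5 1.96, KO6 1.67 and KO8 2.08, against 1.08 for WT1, 1.67 for WT3, 1.29 for WT5, 1.07 for WT6 and 1.34 for WT7. Knockout libraries thus held 2.01 ± 0.242 Mycn reads per Mycl read and wild-type libraries 1.29 ± 0.242, with KO6 and WT3 nearly level at the border. The marked libraries stood at 2.97 in KO4 and 2.16 in WT2, so that WT2 lay within the knockout values. Per kilobase, Mycn made up 68.9% ± 2.38 of the summed Myc paralogues in knockout and 59.2% ± 4.15 in wild type, Mycl 28.2% ± 2.49 in knockout and 38.1% ± 4.14 in wild type, and Myc 2.97% ± 0.452 in knockout and 2.73% ± 0.152 in wild type. The ratio and these shares were chosen after the values of both genes were known and carry no test.

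**Figure D2:**
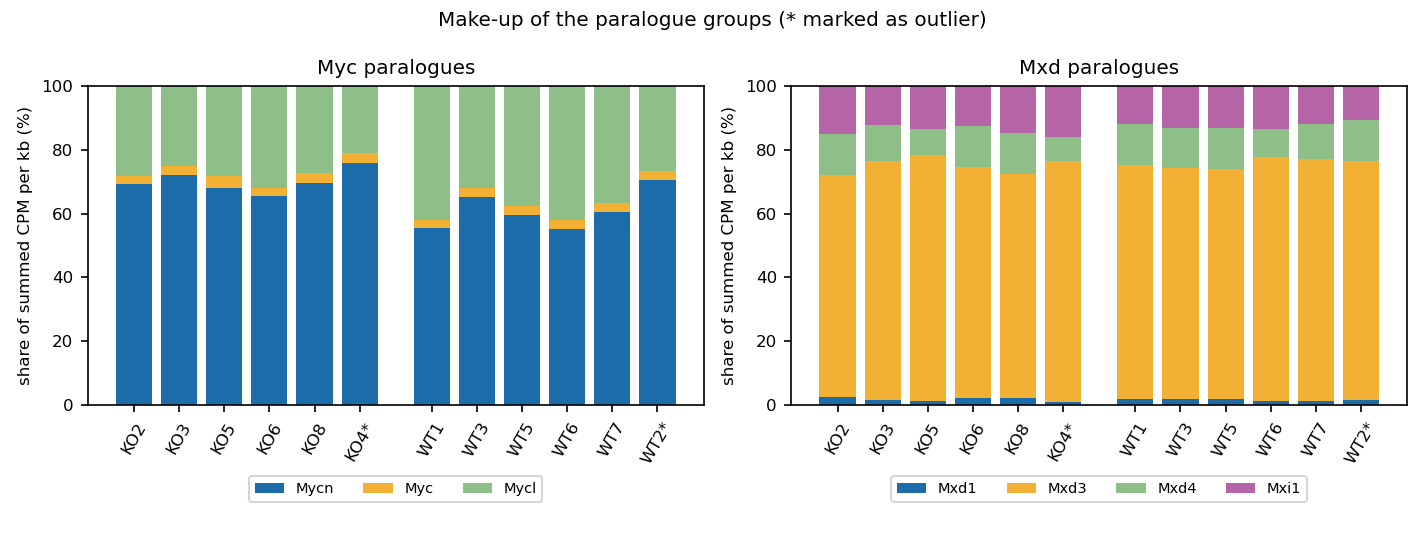
Share of each gene in the summed CPM per kb of its paralogue group in each library (percent), Myc paralogues on the left and Mxd paralogues on the right; knockout libraries stand left of wild type and the asterisk marks KO4 and WT2. Mycn takes 65.4% to 72.0% of the Myc paralogues in the 5 knockout libraries and 55.1% to 65.3% in the 5 wild-type libraries, while Mxd3 takes 69.6% to 77.0% of the Mxd paralogues in knockout and 72.2% to 76.4% in wild type.

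Myc (ENSMUSG00000022346.15, chromosome 15, 61985391 to 61990374, plus strand), the founding member, was low in both groups. KO2 had 9.54 CPM, KO3 12, KO5 14.5, KO6 10.2 and KO8 13.7, against 8.60 CPM for WT1, 10.7 for WT3, 9.63 for WT5, 10.8 for WT6 and 10.3 for WT7. KO3, KO5 and KO8 lay above all wild-type values and KO2 and KO6 among them. The log2 fold change of 0.27 (SE 0.16, adjusted p = 0.349) had a 95% interval of -0.06 to 0.59, and was 0.38 with the GC trend removed. Its counts were 87 to 190 reads per library. KO4 and WT2 were alike, at 12.1 and 12.2 CPM.

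Max (ENSMUSG00000059436.13, chromosome 12, 76937269 to 76962201, minus strand), the shared partner of the other members, averaged 55.8 ± 7.19 CPM in knockout and 58.9 ± 8.31 CPM in wild type. The log2 fold change was -0.08 (SE 0.12, adjusted p = 0.728), with a 95% interval of -0.31 to 0.16, and -0.05 with the GC trend removed. Values ran from 50.7 to 68.1 CPM in knockout and from 47.6 to 67.4 CPM in wild type, ranges that nearly coincide. KO4 had 49.3 CPM and WT2 59.6 CPM.

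Of the Mxd repressors, Mxd3 (ENSMUSG00000021485.14, chromosome 13, 55325168 to 55329823, minus strand) was by far the most abundant and made up 72.8% ± 3.08 of the summed Mxd paralogues per kilobase in knockout and 74.1% ± 1.94 in wild type. KO2 had 105 CPM, KO3 125, KO5 149, KO6 129 and KO8 110.2, against 143 CPM for WT1, 120.2 for WT3, 127 for WT5, 161 for WT6 and 149 for WT7. Only KO2 and KO8 lay below the wild-type range. The log2 fold change was -0.18 (SE 0.11, adjusted p = 0.364), and it was -0.01 with the GC trend removed. In the libraries set apart the order was the reverse, 153 CPM in KO4 and 113 CPM in WT2. Mxd3 shares 105 of its 2369 exon bases with Prelid1 on the opposite strand, and without strand information such reads cannot be assigned to either gene.

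Mxd4, Mxi1 and Mxd1, the repressors usually linked to cell cycle exit and differentiation, differed by less than the spread between libraries. Mxd4 (chromosome 5, 34173883 to 34187720) averaged 69.7 ± 9.59 CPM in knockout and 77.6 ± 8.40 CPM in wild type (log2 fold change -0.16, SE 0.12, adjusted p = 0.428), with 55.0 CPM in KO4 and 70.4 CPM in WT2. Mxi1 (chromosome 19, 53310518 to 53375810) averaged 66.3 ± 6.16 CPM in knockout and 69.2 ± 7.38 CPM in wild type (log2 fold change -0.06, SE 0.11, adjusted p = 0.763), a value whose sign turned to 0.12 with all 12 libraries, at 94.0 CPM in KO4 and 46.0 CPM in WT2. Mxd1 (chromosome 6, 86647042 to 86669161) averaged 9.63 ± 1.80 CPM in knockout and 8.84 ± 1.21 CPM in wild type (log2 fold change 0.12, SE 0.18, adjusted p = 0.715), with 5.06 CPM in KO4 and 7.09 CPM in WT2. With the GC trend removed the log2 fold changes were -0.12 for Mxd4, -0.12 for Mxi1 and 0.17 for Mxd1. The 95% intervals ran from -0.38 to 0.07 for Mxd4, from -0.27 to 0.15 for Mxi1 and from -0.23 to 0.47 for Mxd1, so changes of that size remain possible. Mxd4 shares 514 of its 8483 exon bases with the antisense gene Gm42846, and Mxi1 shares 194 of its 6823 exon bases with Gm10197 on the opposite strand.

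Mga and Mnt are the larger repressors of the network. Of Mga (chromosome 2, 119897228 to 119969581), KO2 had 85.1 CPM, KO3 73.9, KO5 62.7, KO6 66.5 and KO8 75.5, against 55.3 CPM for WT1, 74.2 for WT3, 63.6 for WT5, 63.5 for WT6 and 56.4 for WT7. Only KO2 and KO8 lay above the wild-type range. The log2 fold change was 0.22 (SE 0.11, unadjusted p = 0.0708, adjusted p = 0.268). Mga has the lowest transcript GC content of the members, 42.2%, and with the GC trend removed its log2 fold change was 0.03; KO4 and WT2 had the opposite order, at 51.9 and 70.3 CPM. Mnt (chromosome 11, 74830920 to 74845725) averaged 14.3 ± 2.62 CPM in knockout and 15.0 ± 4.09 CPM in wild type, or -0.07 on the log2 scale (SE 0.19; adjusted p = 0.849 by edgeR), a value that turned to 0.13 with the GC trend removed. The marked libraries had 10.8 CPM of Mnt each.

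The E-box was found in the promoter windows of Mxd4 and Mnt, which are printed because they hold the sequence that the network's own dimers bind; the capitals mark CACGTG. Each line again gives 250 bases before the start in GRCm38.p6:
Mxd4 promoter, chr5:34187711-34187960, minus strand: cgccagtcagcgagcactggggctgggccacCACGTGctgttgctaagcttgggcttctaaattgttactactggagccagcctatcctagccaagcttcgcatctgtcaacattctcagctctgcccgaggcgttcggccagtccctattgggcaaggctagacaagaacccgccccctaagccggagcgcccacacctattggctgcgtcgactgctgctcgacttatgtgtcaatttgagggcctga
Mnt promoter, chr11:74830674-74830923, plus strand: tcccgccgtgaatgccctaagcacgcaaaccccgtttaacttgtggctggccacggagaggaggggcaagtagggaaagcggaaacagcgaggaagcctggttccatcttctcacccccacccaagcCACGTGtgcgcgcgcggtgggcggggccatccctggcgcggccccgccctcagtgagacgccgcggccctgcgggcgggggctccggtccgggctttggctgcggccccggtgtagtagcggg
These are 2 of the 9 members with a window, or 2 of 11 windows, since Mxi1 has several starts. Over all 32851 promoter windows of this length, 6.02% held CACGTG. A match is a string of letters and not evidence of binding, and neither gene differed between the groups beyond the spread.

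**Figure D3:**
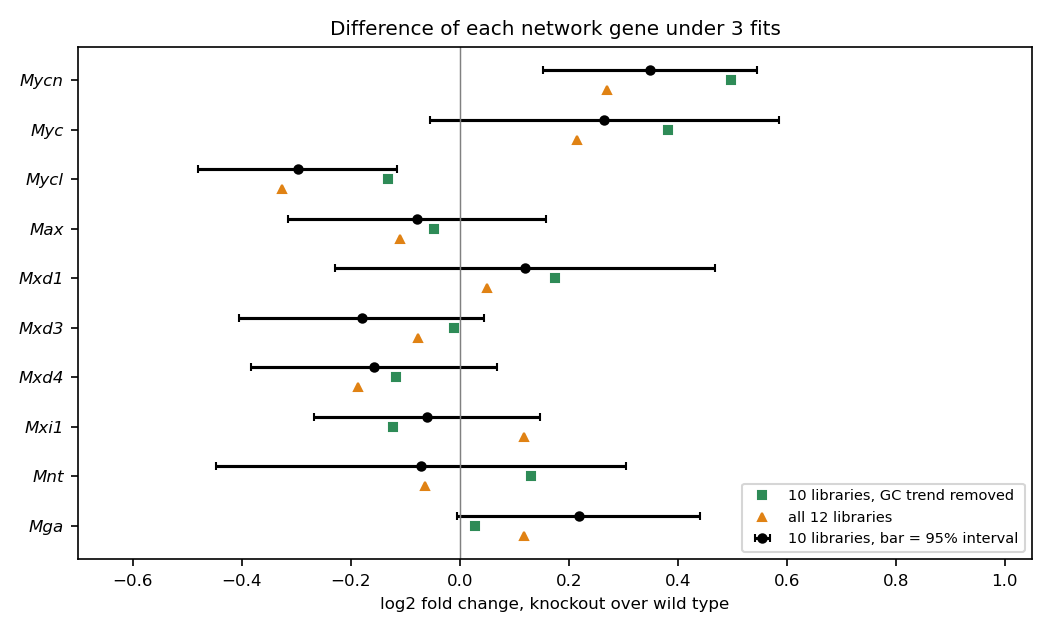
Log2 fold change of each network gene, knockout over wild type, in the 5 against 5 comparison (black, with the 95% interval), with each library's GC trend removed (green) and with all 12 libraries (orange). Mycn lies right of 0 and Mycl left of 0 in all 3 fits, at 0.35, 0.50 and 0.27 for Mycn and -0.30, -0.13 and -0.33 for Mycl.

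Setting activators against repressors, the summed Myc paralogues stood at 2.08 ± 0.198 times the summed Mxd paralogues (Mxd1, Mxd3, Mxd4 and Mxi1) per kilobase in knockout and at 1.70 ± 0.229 times in wild type. The ranges overlapped, at 1.86 to 2.27 in knockout and 1.51 to 2.07 in wild type, and the order was the reverse in those set apart, 1.58 in KO4 and 2.41 in WT2. No test was applied to this ratio.

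Some pairs of members varied together within groups. After subtracting each group's mean, 45 pairs of members were compared over the 10 libraries by permutation tests, of which 1 passed a Benjamini-Hochberg adjusted p of 0.05 for Pearson's r and 10 had an unadjusted p under 0.05; r was positive for 18 pairs and negative for 27, and pairs of other genes were not compared. The passing pair was Mxd1 and Mxd4, with r = 0.89 (permutation p = 3.1e-04, adjusted p = 0.0139) and rho = 0.87 (permutation p = 0.00213, adjusted p = 0.04995). Without the 2 libraries farthest from the median of Mxd1, r was 0.76. Mxd3 and Mga varied in opposite directions, with rho = -0.87 (permutation p = 0.00222, adjusted p = 0.04995) and r = -0.79 (permutation p = 0.00884, adjusted p = 0.0985), and r was -0.58 without the 2 libraries farthest from the median of Mxd3. Mycn and Mycl had r = -0.78 (permutation p = 0.00849, adjusted p = 0.0985) and rho = -0.70 (permutation p = 0.0307, adjusted p = 0.203), and -0.79 for r without the 2 farthest libraries; this pair did not pass. All pairs share library depth and the GC trend of each library, whose part in them was not tested. The permutations treated the 10 values as exchangeable although each group's mean had been removed, so these p-values may be too small. The adjusted p of 0.04995 for rho lies at the threshold.

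**Figure D4:**
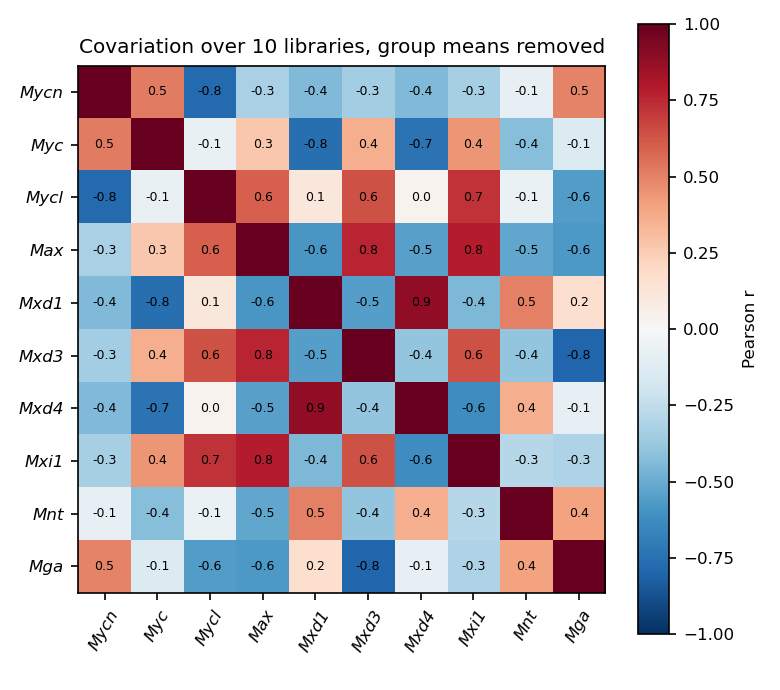
Pearson's r between each pair of network genes over 10 libraries, on log2 of CPM plus 1 with each group's mean subtracted; red is positive and blue negative, and each cell prints r to 1 decimal. Mxd1 with Mxd4 has the highest r, 0.89, and Mxd3 with Mga the lowest, -0.79.

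Over all 12 libraries, the genes most like Mycn among 8930 others with a mean of at least 10 CPM were Arhgap11a, a GTPase-activating protein (r = 0.95, rho = 0.94), Mcm8, a helicase of DNA repair (r = 0.94, rho = 0.85), and Epha7, an ephrin receptor (r = 0.94, rho = 0.89). Those most like Mxd3 were Trap1, a mitochondrial chaperone (r = 0.97, rho = 0.94), Thg1l, a tRNA-histidine guanylyltransferase homologue (r = 0.97, rho = 0.96), and Trim27, a RING-finger ubiquitin ligase (r = 0.97, rho = 0.97). In the 10 unmarked libraries r was 0.95, 0.94 and 0.93 for the genes like Mycn and 0.97, 0.97 and 0.96 for those like Mxd3. They were picked for their r, so these values are descriptions with no test.

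The genes around the network were read from lists of its inputs, partners and targets, and none of their members passed the adjusted threshold in edgeR's test. These lists were chosen with earlier results of these data known, so their shares are descriptions and carry no test. Myc targets, mostly genes of ribosome assembly, nucleotide synthesis and glycolysis, had 59 of 60 listed genes tested, of which 6 with a higher and 22 with a lower mean in knockout had an unadjusted p under 0.05. That share of 47.5% stands beside 21.8% of all genes tested, and the list's median log2 fold change was -0.21 beside 0.0013. With the GC trend removed 5 were higher and 14 lower (32.2% beside 15.7% of all genes), with a median of -0.12, and with all 12 libraries 2 were higher and 2 lower (6.78% beside 3.47%), with a median of -0.05. With the replicate number as a block 1 was higher and 1 lower, 3.39% beside 4.52% of all genes, with a median of -0.11. That fit rests on the libraries numbered 3, 5 and 6, the numbers found in both groups. The members with the smallest p were Bop1, a ribosome assembly factor (44.4 ± 6.12 CPM in knockout and 61.2 ± 2.05 CPM in wild type, adjusted p = 0.124), Fbl, the nucleolar methyltransferase fibrillarin (17.1 ± 3.53 CPM in knockout and 26.1 ± 3.09 CPM in wild type, adjusted p = 0.124), and Gart, an enzyme of purine synthesis (52.1 ± 11.3 CPM in knockout and 74.6 ± 12.2 CPM in wild type, adjusted p = 0.131). For all 3 the order was the reverse in the libraries set apart, for example 55.0 CPM of Bop1 in KO4 and 29.9 CPM in WT2.

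Of the 59 targets, the groups of 1 lower gene, Bop1, and of 1 higher gene, Wdr43, did not overlap, beside 2.35% of all genes tested (1.04% higher and 1.31% lower). Wdr43, a factor of small-subunit ribosome assembly named here after its values were seen, averaged 112 ± 17.6 CPM in knockout and 86.2 ± 4.58 CPM in wild type; KO4 and WT2 had the opposite order, at 85.6 and 159.9 CPM. Without KO5, 7 targets passed as higher and 28 as lower, in the fit in which 22.9% of all genes passed.

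Among the coactivators that Myc recruits, 21 of 21 genes were tested, with an unadjusted p under 0.05 for 3 that were higher and 7 that were lower (47.6% beside 21.8% of all genes; 11.8% of all genes were higher and 9.97% lower; list median -0.06). With the GC trend removed 5 were higher and 5 lower (47.6% beside 15.7%), with a median of -0.01. Crebbp, a histone acetyltransferase, averaged 126 ± 16.7 CPM in knockout and 92.3 ± 18.8 CPM in wild type (adjusted p = 0.131 in edgeR's test). Ruvbl2, an ATPase of chromatin remodelling and acetyltransferase complexes, averaged 77.7 ± 24.6 CPM in knockout and 112 ± 15.6 CPM in wild type. Supt5, an elongation factor, averaged 28.6 ± 8.90 CPM in knockout and 40.2 ± 7.41 CPM in wild type. For all 3 the marked libraries had the opposite order. KO4 and WT2 had 120 and 135 CPM of Crebbp, 129 and 42.2 CPM of Ruvbl2, and 43.0 and 17.0 CPM of Supt5. With all 12 libraries 1 was higher and 0 lower at that level (4.76% beside 3.47%) and the median was 0.03. In the 5 against 5 comparison DESeq2 called 1 higher and 1 lower at an adjusted p under 0.05, where it called 4.71% of all genes with an adjusted p.

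Regulators of Myc protein turnover had 20 of 20 genes tested, 2 higher and 1 lower by the same unadjusted threshold (15% beside 21.8% of all genes, median -0.04), and with the GC trend removed 1 higher and 2 lower (15% beside 15.7%). Gsk3a, a kinase of the family that marks Myc proteins for destruction, averaged 32.8 ± 8.43 CPM in knockout and 47.9 ± 9.26 CPM in wild type. Set, an inhibitor of the phosphatase PP2A, averaged 456 ± 61.3 CPM in knockout and 375 ± 37.0 CPM in wild type, and Usp28, a ubiquitin protease that stabilises Myc, 25.1 ± 5.17 CPM in knockout and 20.1 ± 1.43 CPM in wild type.

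The Sin3 and histone deacetylase corepressors through which Mxd proteins act had 20 of 20 genes tested, 2 higher and 0 lower by the same unadjusted threshold (10% beside 21.8% of all genes, median 0.07). With the GC trend removed 3 were higher and 0 lower (15% beside 15.7%), close to the background, with a median of 0.10. In edgeR's fit with all 12 libraries 0 were higher and 0 lower (beside 3.47%). The 3 of smallest p are given as values only. Hdac2, a histone deacetylase, averaged 891 ± 221 CPM in knockout and 655 ± 67.6 CPM in wild type, Arid4b, a Sin3 complex subunit, 122 ± 27.6 CPM in knockout and 94.3 ± 22.4 CPM in wild type, and Ncor1, a corepressor scaffold, 156 ± 16.4 CPM in knockout and 139 ± 7.99 CPM in wild type. The Polycomb complex that holds Mga had 13 of 13 genes tested, 3 higher and 1 lower (30.8% beside 21.8% of all genes, median 0.04). With the GC trend removed 2 of its genes were higher and 2 lower (30.8% beside 15.7%). With all 12 libraries 0 were higher and 1 lower (7.69% beside 3.47%). Under the replicate block 0 were higher and 0 lower (beside 4.52%). Hdac2 is in that list too; Yaf2, an adaptor subunit, averaged 176 ± 23.7 CPM in knockout and 145 ± 7.83 CPM in wild type, and Rnf2, the histone ubiquitin ligase of the complex, 271 ± 55.5 CPM in knockout and 211 ± 25.1 CPM in wild type. Rnf2 had a log2 fold change of 0.36, and 0.085 with the GC trend removed; that of Hdac2 was 0.45, and 0.23 with the trend removed. For Hdac2, KO4 had 719 CPM and WT2 1489 CPM, the opposite order. The order was also opposite for Yaf2, with 136 CPM in KO4 and 208 CPM in WT2. The same held for Rnf2, with 196 CPM in KO4 and 415 CPM in WT2.

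The Mlx arm, which links the network to nutrient sensing, and other E-box factors had 5 of 6 genes tested, 1 higher and 0 lower (20% beside 21.8% of all genes; median -0.11, and 0.03 with the GC trend removed); Mlxipl did not pass the filter. Tcfl5, an E-box factor best known from testis, averaged 10.7 ± 3.19 CPM in knockout and 7.23 ± 1.35 CPM in wild type. Its log2 fold change was 0.56, 0.74 with the GC trend removed and 0.17 with all 12 libraries. KO4 had 3.70 CPM of Tcfl5 and WT2 14.8 CPM, the opposite order. Usf1 and Usf2, upstream stimulatory factors of the same DNA motif, had lower means in knockout. Usf1 averaged 93.8 ± 16.3 CPM in knockout and 105 ± 7.78 CPM in wild type. Usf2 averaged 46.9 ± 2.67 CPM in knockout and 51.7 ± 6.93 CPM in wild type. Their log2 fold changes of -0.16 and -0.14 were -0.0048 and 0.047 with the GC trend removed. That of Usf1 was 0.046 with all 12 libraries. Of the Sonic hedgehog input to Mycn, 11 of 12 genes were tested, of which edgeR put 0 higher and 2 lower at that unadjusted level (18.2% beside 21.8% of all genes, median -0.07). With the GC trend removed 1 was higher and 0 lower (9.09% beside 15.7%) and the median turned to 0.10, and with all 12 libraries edgeR's unadjusted counts were 0 higher and 0 lower (beside 3.47%). Sufu, which restrains the Gli factors, averaged 29.9 ± 2.35 CPM in knockout and 39.6 ± 4.83 CPM in wild type (adjusted p = 0.131 by edgeR). KO4 had 38.8 CPM of Sufu and WT2 26.1 CPM, the opposite order. Smo, the signal transducer, averaged 99.8 ± 18.0 CPM in knockout and 124 ± 12.5 CPM in wild type (adjusted p = 0.162 by edgeR), with 70.3 CPM in KO4 and 71.7 CPM in WT2. Ptch1, the Shh receptor and a target of the pathway, averaged 87.4 ± 27.9 CPM in knockout and 70.5 ± 7.39 CPM in wild type (log2 fold change 0.31, adjusted p = 0.287); its sign turned to -0.04 with all 12 libraries, with 58.3 CPM in KO4 and 157.5 CPM in WT2.

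**Figure D5:**
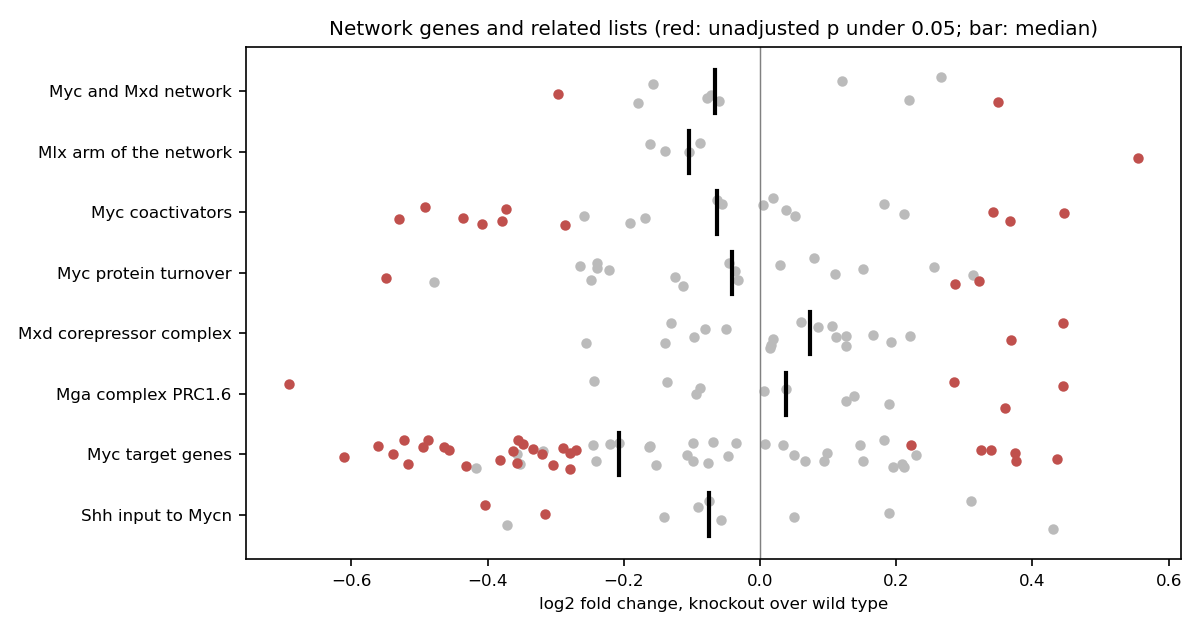
Log2 fold change, knockout over wild type, of every tested gene of the network and of its related lists; each point is a gene, red where the unadjusted p is under 0.05, and the black bar is the median of the list. The median of the Myc target genes is -0.21 and that of the network -0.07, and no point passes the adjusted threshold in edgeR's test.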

How the data were processed

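RNA was sequenced from laser-captured external granule layer of 12 libraries, and libraries were prepared with a NEBNext Ultra kit, per the labels' protocols. The deposited values are raw read counts per gene, not normalized. Build mm10 and the tools cutadapt 1.16, STAR 2.5.3a, HTSeq 0.6.1 and DESeq2 are named, per the submitters' processing notes (settings, annotation release and strand setting: not given in the sources used here). Library sizes do not include the 5 summary rows: multiply placed alignments were 64.4% to 67.6% of records, and 6.81% to 8.13% of uniquely placed reads were ambiguous between genes, so genes with near-identical copies are uncertain. Within a group all 30 pairs of libraries differed by more than sampling noise (chi-square over degrees of freedom between 6.57 and 92.0).

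Groups come from the titles. Of the identifiers, 53274 had a position in GENCODE M21 (GRCm38, also called mm10). Genes were filtered with filterByExpr (minimum count 10) and compared with edgeR 4.0.16 (quasi-likelihood, robust, TMM; R 4.3.3); DESeq2 1.42.0 was an alternative. The SE of a log2 fold change is its size over the square root of the test's F. CPM used a filter and factors over all 12 libraries. Promoter windows are from RefSeq, GRCm38.p6. The GC correction enters as an offset the spline (5 degrees of freedom) of log2 CPM over transcript GC content fitted in each library. The procedure was tested on simulated data. Protein sequences were not used here. Text names the 10 members, Skil, per list the 3 genes of smallest p, and the 3 genes most correlated with Mycn and with Mxd3; Wdr43 was added after its values were seen. Alternatives were all 12 libraries, each library left out, KO2 counted as wild type, RLE factors, library size only, other filters, the replicate number as a block and the GC correction; 11 libraries without WT2, 11 without KO4 and 12 with GC correction were chosen after seeing the data. The members and lists were chosen with earlier results of these data known.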

Additional observations from a re-analysis of the deposited data

Results flagged for a closer look

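Over the 20 groups of 5 values (10 genes in knockout and in wild type), 1 library stood far from the others. Mxi1 had 82.0 CPM in WT6, where the other 4 wild-type libraries lay between 63.1 and 67.6 CPM, a gap of 0.76 of the group's range against a critical value of 0.71. Chance flags about 1 in 20 such groups. Without WT6 the log2 fold change of Mxi1 was 0.0063 (adjusted p = 0.979).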

How the results depend on the processing

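The signs of Mycn, Myc, Mycl, Mxd1 and Mxd4 were kept in all 23 alternatives; 15 of 230 member values turned sign and 4 newly passed. Newly passing were Mycn and Mycl in DESeq2 (0.35 and -0.30) and without KO5 (0.34 and -0.31). Turned signs were Mxi1 with all 12 libraries (0.12), with all 12 and the GC correction (0.079), without WT2 only (0.036) and without KO4 only (0.017); Mnt with the GC correction (0.13) and with all 12 and the GC correction (0.031); Max under the replicate block (0.012) and block with GC correction (0.028); and Mxd3 (0.10), Mnt (0.0022) and Mga (-0.11) under block with GC correction. Leaving out each library, log2 fold changes ran from 0.30 to 0.42 for Mycn, -0.33 to -0.26 for Mycl, -0.11 to 0.0063 for Mxi1 and -0.19 to 0.038 for Mnt (positive without WT1, WT3 or KO5). Causes were not tested.

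Genes called over the whole table numbered 3, and 1 with all 12 libraries, 0 with KO2 as wild type, 965 without filter, 0 under the replicate block, 5 with the GC correction, 0 with both, 1 without WT2 only and 470 in DESeq2; leaving out each library gave 0 to 3102. Network members called numbered 0, and 2 in DESeq2 and 0 to 2 leaving out each library (2 without KO5). Members whose groups did not overlap numbered 1, beside 2.35% of all genes tested. They numbered 0 with all 12 libraries, 0 with KO2 as wild type and 0 without KO4 only, and leaving out each library gave 1 to 2. These settings have other group sizes, for which no share over all genes is given, so their counts stand without a background. Called genes of the related lists numbered 0. Without filter they numbered 17, where 965 of 27688 genes were called, and in DESeq2 11, where 4.71% of genes with an adjusted p were. Leaving out each library gave 0 to 60, with 60 without KO5, where 22.9% of all genes were called. The 3 same-numbered pairs had correlations of 0.14, -0.07 and 0.11. Differently numbered pairs ran from -0.31 (WT3 with KO5) to 0.36 (WT6 with KO5). So few pairs cannot show whether the numbers pair libraries. The replicate block rests on the libraries numbered 3, 5 and 6, the numbers found in both groups. Under it Mycn had 0.31 and Mycl -0.27. The low counts of Myc, Mxd1 and Mnt limit their precision.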

Other observations

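The marked libraries were far apart for Mxi1, which had its highest value of all 12 libraries in KO4, at 94.0 CPM, and its lowest in WT2, at 46.0 CPM. KO4 also held the lowest values over the 12 libraries of Mycl, at 114 CPM, Mxd1, at 5.06 CPM, Mxd4, at 55.0 CPM, and Mga, at 51.9 CPM.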
